A study of Mus musculus with 3 samples.

Results

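CXC chemokines are small secreted proteins that draw leukocytes along a gradient by binding G-protein-coupled receptors on their surface. The 10 genes described here are Cxcl1, Cxcl2, Cxcl3, Cxcl5, Cxcl9, Cxcl10, Cxcl11, Cxcl12, Cxcl14 and Cxcl16, and their members on the array were the non-control probes whose RefSeq accession leads to one of these symbols. Of the 10 genes, 9 had such a probe, on 11 probes in all, and 7 were bright enough to be tested, out of 20660 genes with a probe and 13182 tested. The study hybridised 3 Agilent 2-colour arrays, each with 1 treated and 1 untreated RNA sample of macrophages grown from mouse bone marrow. Both groups came from C57BL/6J mice, were matured from marrow precursors with conditioned medium of the fibroblast line L929, a source of CSF-1, and were kept in low serum. The treated group then received adiponectin, a hormone secreted by fat cells, at 12 µg/ml for 18 h, and the untreated group had the same culture without it. The labels' extraction text writes this dose as mg/ml instead, and µg/ml follows their treatment text. The treated sample carried Cy5 on replicate 2 and Cy3 on the other two arrays. The replicates are labelled as biological, but nothing says whether they came from separate mice. Each p-value thus measures the spread between these 3 arrays, pulled toward the spread typical of all tested genes.

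Macrophages that meet microbial products or inflammatory cytokines are a known source of CXC chemokines. Cxcl1, Cxcl2, Cxcl3 and Cxcl5 belong to the branch that binds Cxcr2 and attracts neutrophils, and their transcription is known to be driven by NF-kB. Cxcl9, Cxcl10 and Cxcl11 are induced by interferons, bind Cxcr3 and attract activated T cells and natural killer cells. Cxcl12 and Cxcl14 are mostly made at rest by stromal and epithelial cells, and Cxcl16 is made as a membrane protein that also takes up oxidized lipoproteins.

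The promoters of the 3 genes that rose most are shown first because they carry the same 10-base kB motif, the kind of site that NF-kB binds. Cxcl1 and Cxcl2 are neighbouring genes on chromosome 5, and Cxcl3 lies next to Cxcl15, the other neighbour of Cxcl1. The 3 sequences are the 150 bases before the annotated start, 5′ to 3′ on the gene's plus strand, at chr5:90891095-90891244 for Cxcl1, chr5:90903749-90903898 for Cxcl2 and chr5:90785951-90786100 for Cxcl3 (RefSeq, GRCm38.p6). Capitals mark GGGAATTTCC and the TATA-like ATAAAAGG.
Cxcl1: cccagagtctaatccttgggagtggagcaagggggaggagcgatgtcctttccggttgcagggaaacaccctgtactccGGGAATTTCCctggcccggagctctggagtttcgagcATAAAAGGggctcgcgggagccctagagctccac
Cxcl2: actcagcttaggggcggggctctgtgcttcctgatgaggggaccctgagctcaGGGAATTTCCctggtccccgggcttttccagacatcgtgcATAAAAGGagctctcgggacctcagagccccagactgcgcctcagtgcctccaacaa
Cxcl3: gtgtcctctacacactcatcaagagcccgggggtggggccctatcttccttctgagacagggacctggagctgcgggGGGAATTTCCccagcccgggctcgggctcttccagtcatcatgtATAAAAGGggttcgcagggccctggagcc
The kB match began 71, 97 and 73 bases before the start of Cxcl1, Cxcl2 and Cxcl3, and 27, 30 and 34 bases lay between it and the ATAAAAGG. GGGAATTTCC was cut from the longest run that Cxcl1 and Cxcl3 share, GGGAATTTCCC, so its match in both was fixed in advance. Cxcl2 held the same run, and Cxcl1 and Cxcl2 shared a run of 14 bases, GGGAATTTCCCTGG. GGGAATTTCC was found on either strand in 28 of 32841 promoter windows of 250 bases (0.0853%) and ATAAAAGG in 1.54%. The loose kB form (GGG, any 5 bases, CC), which overlaps the strict one, was in 45.8% of windows. These motifs were chosen after the sequences were seen, and a match describes letters only. The 3 genes are close in sequence, so their matches are not independent of each other.

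Cxcl9 and Cxcl10 are shown because they respond to interferon and rose by very different amounts. The 250 bases before the start are given 5′ to 3′ on the minus strand, at chr5:92328080-92328329 for Cxcl9 and chr5:92348890-92349139 for Cxcl10 (RefSeq, GRCm38.p6). Capitals mark the loose kB form, the interferon response motif (GAAA, any 2 bases, GAAA), the AP-1 motif TGANTCA and the run CAGCCAATCAG, all searched on both strands.
Cxcl9: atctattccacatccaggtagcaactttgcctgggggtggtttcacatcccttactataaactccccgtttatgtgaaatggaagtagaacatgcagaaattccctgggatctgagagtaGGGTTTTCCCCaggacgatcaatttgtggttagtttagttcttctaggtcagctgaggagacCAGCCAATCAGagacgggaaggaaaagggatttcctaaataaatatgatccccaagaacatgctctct
Cxcl10: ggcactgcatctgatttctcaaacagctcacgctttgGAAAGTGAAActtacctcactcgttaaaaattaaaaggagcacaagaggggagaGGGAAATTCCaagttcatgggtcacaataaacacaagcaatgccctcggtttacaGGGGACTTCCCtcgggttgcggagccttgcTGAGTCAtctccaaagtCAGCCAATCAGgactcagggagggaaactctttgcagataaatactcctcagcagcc
CAGCCAATCAG, which holds a CCAAT box, was the longest run that both windows shared, and it was present in 0.755% of all windows. The interferon response motif as spelled here was found in Cxcl10 and not in Cxcl9, and in 2.98% of all windows. An interferon element with another spelling would be missed, so Cxcl9 cannot be said to lack one. TGANTCA, found in Cxcl10 alone of the 7 members in the promoter table, was in 6.75% of windows. Neither gene held GGGAATTTCC, whereas the loose kB form, with overlapping matches, was present in both. Promoters of Cxcl12 and Cxcl14 were searched as well: Cxcl12 had the loose kB form alone, and Cxcl14 had the interferon response motif and the STAT motif TTCNNNGAA (7.02% of windows). No promoter of Cxcl5, Cxcl11 or Cxcl16 was available to search.

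**Figure D1:**
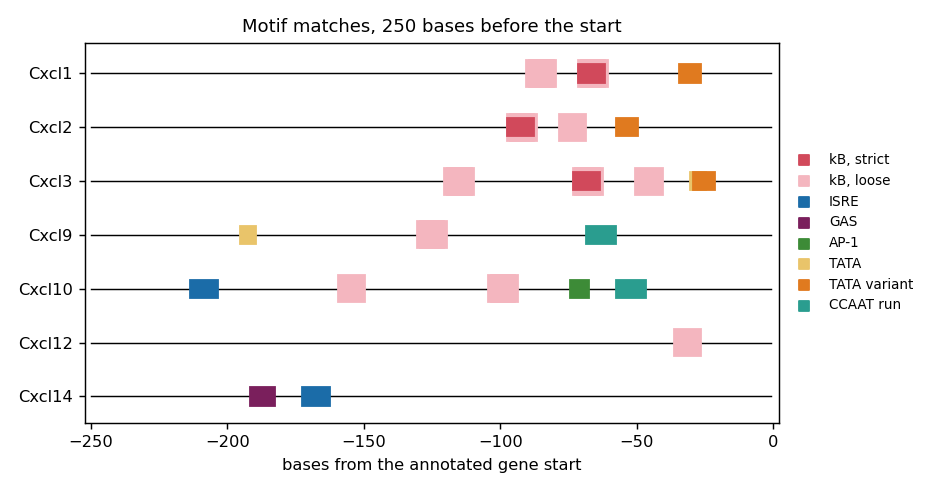
Motif matches in the 250 bases before the annotated start of 7 CXC chemokine genes. The x axis is the distance from the start in bases, each box is a match on either strand, and the pale boxes are the loose kB form that 45.8% of all windows hold. The strict kB match and the TATA-like match stand in the same order in Cxcl1, Cxcl2 and Cxcl3.

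Of the 7 tested CXC chemokine genes, 6 rose and none fell in limma at a Benjamini-Hochberg adjusted p under 0.05, where 24.5% of the 13182 tested genes were called higher and 46.1% lower. Their median log2 ratio of treated over untreated was 2.88, against -0.17 over all tested genes. On each of the 3 arrays the ratios stood in the same order, from Cxcl3 through Cxcl1, Cxcl2, Cxcl9, Cxcl16 and Cxcl10 to Cxcl14. By probe, 7 of 8 measured CXC chemokine probes rose and none fell, beside 25.9% higher and 35.9% lower of 28963 measured probes. When loess was replaced by median centring, no gene of the array passed in limma (5315 had an unadjusted p under 0.05). The median of all tested genes was then -1.03. Under that setting 5 of the 6 ratios stayed above 0, and Cxcl10 was at -0.15. All 3 arrays shared 1 slide and 1 scan, so no batch could be compared.

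**Figure D2:**
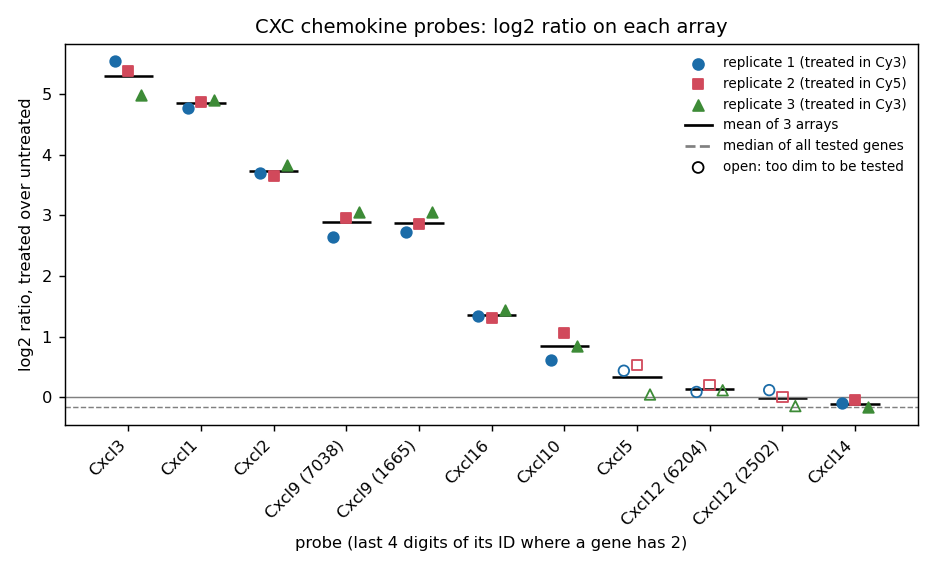
Log2 ratio of treated over untreated (y axis) for each of the 11 probes on each of the 3 arrays, after normexp and loess. Points are single arrays, black bars are means, and open points are probes too dim to be tested. Cxcl3, Cxcl1, Cxcl2 and both Cxcl9 probes lie above 2.6 on every array.

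The neutrophil attractants Cxcl1, Cxcl2 and Cxcl3 had the largest ratios of the 7 tested genes. Cxcl3 had normalized log2 signals of 11.34, 11.72 and 10.93 in treated cells and of 5.79, 6.34 and 5.93 in untreated cells on replicates 1, 2 and 3. The groups were far apart, and the lowest treated sample was that of replicate 3. Its ratios were 5.55, 5.39 and 4.996, with a mean of 5.31 ± 0.11 (moderated SE, n = 3 arrays), or 39.6-fold with a 95% interval of 33.1 to 47.5 (limma adjusted p = 3.05e-08). Only 2 tested genes had a higher mean ratio. The size moved with the background correction, to 6.67 when normexp had an offset of 0 and to 7.26 for the ratio that the scanner software gives. With median centring it was 4.33. The untreated Cxcl3 readings were well above background on all 3 arrays. Their mean of 6.02 still lay beside the 6.11 and 5.89 of the 2 Cxcl12 probes, which were not above background. The fold thus rests on a dim untreated side, which the interval does not cover.

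Cxcl1, the chemokine first named KC in mice, was at 11.68, 12.09 and 11.90 in treated cells and at 6.90, 7.21 and 6.99 in untreated cells. Its ratios of 4.78, 4.88 and 4.90 were nearly the same on every array. The mean of 4.85 ± 0.081 (SE, n = 3) corresponds to 28.9-fold (95% interval 25.4 to 32.9, limma adjusted p = 8.79e-09), the 14th highest of all tested genes. That interval covers the spread between arrays, pulled toward that of all tested genes, and not the choice of processing. The mean was 5.53 for a normexp offset of 0, 5.74 for the scanner ratio and 3.74 with median centring. Cxcl2, also called MIP-2, was at 11.0, 11.45 and 11.1 in treated cells and at 7.31, 7.80 and 7.26 in untreated cells. Replicate 2 was the higher in both groups, and the ratios of 3.70, 3.65 and 3.84 did not separate it. They gave 3.73 ± 0.084 (SE, n = 3), or 13.3-fold (95% interval 11.6 to 15.1, limma adjusted p = 3.21e-08). Under the same 3 settings Cxcl2 was at 4.28, 4.47 and 2.64.

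Among these 3 relatives Cxcl2 had the smallest ratio on each array. The ratio of Cxcl1 exceeded that of Cxcl2 by 1.08, 1.23 and 1.07 on replicates 1, 2 and 3, a mean of 1.13 ± 0.089 (SD). That of Cxcl3 exceeded Cxcl1 by 0.77, 0.51 and 0.09, a mean of 0.46 ± 0.34 (SD), so that the first gap was many times its spread and the second was close to it in size. With 3 arrays an exact sign-flip test cannot go below p = 0.25, and none was run. The 3 genes are close in sequence, and whether their probes also bind each other's transcripts was not tested.

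Cxcl5, the neutrophil attractant also called LIX, was dim on all 3 arrays. Its probe was well above background in 2 of 3 treated readings and in none of the untreated ones. The treated signals were 6.40, 6.52 and 6.11 and the untreated ones 5.97, 5.99 and 6.06, so that the groups came within 0.04 of each other on replicate 3. The mean treated signal was 1.25-fold higher. Here the untreated side was the higher of its own signal and the lowest signal called well above background on its array. The mean takes in the treated reading of replicate 3, which was not well above background, so this value is not a lower bound. Cxcl5 is too dim for a fold. Cxcl5 was not among the tested genes. Without a filter on dim probes its ratio was 0.34 ± 0.10 (SE) and passed (limma adjusted p = 0.0301). The scanner software's log2 ratios for it were 3.04, 3.56 and 0.19.

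**Figure D3:**
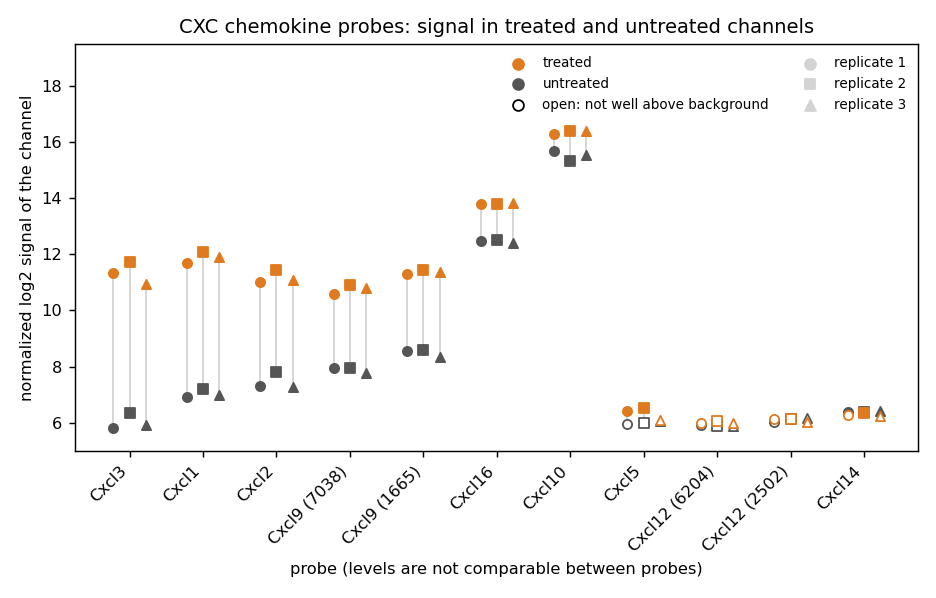
Normalized log2 signal (y axis) of each CXC chemokine probe in the treated and untreated channel of each array, joined by a line per array. Open symbols were not well above background, and levels are not comparable between probes. For Cxcl1, Cxcl2, Cxcl3, Cxcl9, Cxcl10 and Cxcl16 every treated signal lies above every untreated one.

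The ligands of Cxcr3 rose less, and unequally. Cxcl9, an attractant of activated T cells that interferon gamma induces, was at 11.29, 11.45 and 11.38 in treated cells and at 8.57, 8.58 and 8.33 in untreated cells. The treated samples lay close together and all above the untreated ones. Ratios of 2.72, 2.87 and 3.05 gave 2.88 ± 0.092 (SE, n = 3), or 7.36-fold (95% interval 6.36 to 8.52, limma adjusted p = 8.83e-08). The other Cxcl9 probe gave 2.65, 2.96 and 3.05, with a mean of 2.89, so both probes of the gene were alike in size.

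Cxcl10, also called IP-10, was already bright in untreated cells, at 15.68, 15.33 and 15.56, and was at 16.3, 16.4 and 16.41 in treated cells. Its lowest treated sample was above its highest untreated one, by less than for any other gene that rose but with the same direction on each array. Ratios of 0.62, 1.06 and 0.85 gave 0.84 ± 0.10 (SE, n = 3), or 1.79-fold (95% interval 1.53 to 2.11, limma adjusted p = 9.68e-05). Of 28963 measured probes only 268 had brighter spots, and no spot was saturated. With median centring the 3 ratios were -1.25, 2.00 and -1.21, where the array with treated RNA in Cy5 stood apart, and the mean with both dye orientations weighted equally was 0.39. A required log2 change of 1 ended the call. Cxcl11, the remaining Cxcr3 ligand, had no matching probe. RefSeq lists it next to Cxcl10 as a transcribed pseudogene in this assembly of the C57BL/6J genome.

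Cxcl16, the membrane-bound ligand of Cxcr6, was at 13.8, 13.81 and 13.83 in treated cells and at 12.46, 12.5 and 12.4 in untreated cells. Both groups were tight. The ratios of 1.34, 1.31 and 1.43 gave 1.36 ± 0.081 (SE, n = 3), or 2.57-fold (95% interval 2.26 to 2.92, limma adjusted p = 1.71e-06). With median centring it was at 0.25. Its ratio exceeded that of Cxcl10 by 0.72, 0.25 and 0.58 on the 3 arrays.

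The chemokines of resting tissue were dim. Cxcl14, a chemokine of epithelia and skin, was well above background in 3 of 3 untreated readings and in 1 of 3 treated ones. It was at 6.29, 6.33 and 6.23 in treated cells and at 6.39, 6.38 and 6.40 in untreated cells, and its ratios of -0.10, -0.04 and -0.17 were all slightly below 0. Their mean of -0.11 ± 0.081 did not pass (limma adjusted p = 0.274), with a 95% interval of -0.29 to 0.08 on the log2 scale. It turned to 0.07 when arrays were centred on the tested genes and passed as lower with a normexp offset of 0 (-0.37, limma adjusted p = 0.0407). Cxcl12, the stromal ligand of Cxcr4, had 2 probes for different transcripts, and neither was well above background in any of 6 readings. Treated signals of 6.15, 6.15 and 6.01 and untreated ones of 6.03, 6.15 and 6.16 on one probe overlapped. On the other, treated signals of 6.00, 6.07 and 5.997 lay slightly above untreated ones of 5.91, 5.87 and 5.88. Both are background readings, and no fold is given.

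**Figure D4:**
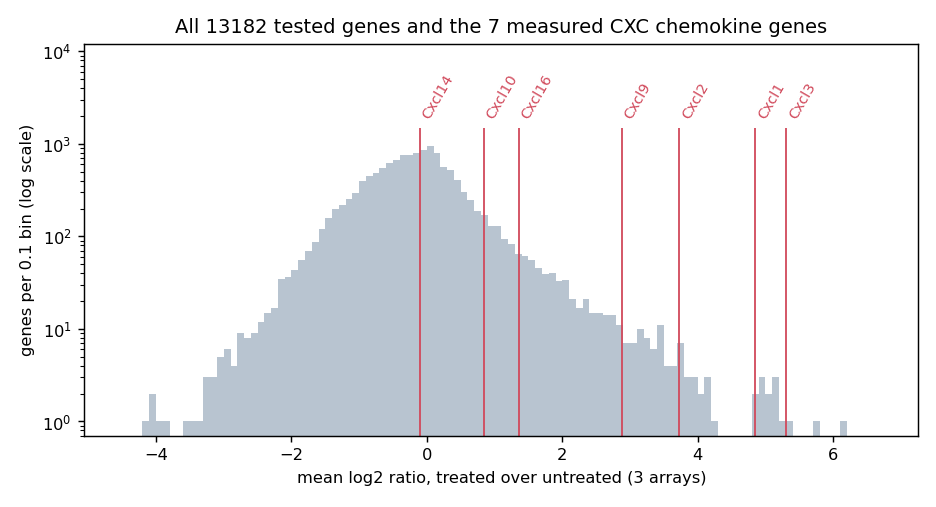
Mean log2 ratio of treated over untreated for all 13182 tested genes (bars, genes per 0.1 bin on a log axis), with the 7 tested CXC chemokine genes as red lines. Cxcl3 and Cxcl1 stand at the far right of the distribution, ranked 3rd and 14th, and Cxcl14 near its centre.

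Genes with the most similar ratios over the 3 arrays were sought for the highest and the lowest tested member. For Cxcl3 these were Adora2b (root mean square difference 0.31 on the log2 scale), Tnfsf9 (0.36) and Hspa1a (0.37). No gene came within 0.1 of Cxcl3 and 7 came within 0.5. For Cxcl14 the nearest were Xlr (0.0099), Acsm1 (0.015) and Gipc1 (0.015), among 581 genes within 0.1.

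Of 8 genes of CXC receptors and scavenger receptors, 5 were measured, 3 rose and none fell, beside 24.5% higher and 46.1% lower of all tested genes. Their median log2 ratio was 0.53 with loess and -0.40 with median centring. When all 6 readings had to be well above background, 1 receptor gene was called higher. Cxcr1, a neutrophil receptor, rose by 0.86 ± 0.087 (ratios of 0.74, 1.00 and 0.83), with 1 of 3 untreated readings above background, and was at 2.06 for a normexp offset of 0 and 2.83 for the scanner ratio. Cxcr5, the receptor of Cxcl13, had no untreated reading well above background and met the filter through its treated readings alone. It is counted as higher above, but no p-value is given for it. The estimate of 1.57-fold is set against a background reading and is not a lower bound. The Cxcr5 ratio of 0.65 became 1.73 and 2.67 under those 2 settings. Cxcr3 rose by 0.53 ± 0.091 with loess (0.62, 0.63 and 0.35) and was at -0.51 with median centring. Cxcr4 (0.15 ± 0.082, limma adjusted p = 0.143) and Cxcr6 (0.32 ± 0.13, limma adjusted p = 0.0598) did not pass, and both were below 0 with median centring. Cxcr4 passed as higher in 3 of 17 tested alternatives, at 0.32 for a normexp offset of 0, 0.30 for the scanner ratio and 0.32 when arrays were centred on the tested genes. Cxcr6 passed as higher in 8 of 17. Its ratios were 0.41, -0.10 and 0.65, and without replicate 2 it was at 0.53 (limma adjusted p = 0.00190). The other Cxcr6 probe was at 0.12, and the mean over the measured probes was 0.22 (limma adjusted p = 0.0956). Cxcr2, the receptor of the neutrophil attractants, and Ackr3, the scavenger of Cxcl12, were not measured: Cxcr2 was above background in 1 of 6 readings and Ackr3 in 0.

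Among 5 other CXC ligand genes, 2 were measured and both rose, beside 24.5% higher and 46.1% lower of all tested genes. These were Ppbp, a platelet chemokine (0.61 ± 0.098, but 1.52 for a normexp offset of 0 and 2.40 for the scanner ratio), and Pf4, platelet factor 4 (0.43 ± 0.093, and -0.60 with median centring). Both lie in the chromosome 5 cluster beside Cxcl5 and Cxcl3, whereas Cxcl15, between Cxcl3 and Cxcl1, was not above background in any reading.

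Genes that bind, cut or shed CXC ligands went both ways. Of 8 measured members, 4 rose and 2 fell (24.5% and 46.1% of all tested genes). Their median was 0.22 with loess and -0.36 with median centring. The heparan sulfate proteoglycan genes Sdc1 and Sdc4 rose by 2.51 ± 0.089 and 2.11 ± 0.089. Adam10, a protease that sheds Cxcl16 from the membrane, had a log2 change of -1.27 ± 0.10, with -1.30, -1.02 and -1.49 on the 3 arrays. Adam17, the other ADAM protease gene of this list, was at 0.09 ± 0.094 and did not pass (limma adjusted p = 0.426). Cxcl16 and Adam10 had opposite signs on each array with loess, but not on replicates 1 and 3 with median centring, where Cxcl16 was at -0.44 and -0.56 and the mean of Adam10 at -2.45.

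Of 12 measured genes of NF-kB and its regulators, 8 rose and 1 fell, and for this list and the next pair the shares over all tested genes were again 24.5% higher and 46.1% lower. Their median was 0.77 with loess and -0.38 with median centring. The inhibitor gene Nfkbia rose by 3.51 ± 0.094, and Bcl3 and Nfkb2, also of this list, by 2.36 ± 0.092 and 2.02 ± 0.092. Interferon genes were divided, with 4 higher and 4 lower of 11 measured and a median of -0.03, which turned to 0.14 when arrays were centred on the tested genes and was -1.18 with median centring. Ifnb1, interferon beta, rose by 1.85 ± 0.11 (1.53, 1.97 and 2.06), while Ifngr1, a chain of the interferon gamma receptor, had a log2 change of -1.76 ± 0.088 and Stat2, which carries the type I interferon signal, of -1.45 ± 0.097. Of 7 measured regulators of chemokine mRNA decay, 4 rose and 1 fell. Their median was 0.57 with loess and -0.53 with median centring. The decay factor genes Zfp36 and Zc3h12a rose by 2.41 ± 0.080 and 2.00 ± 0.084. Of the relatives of Zfp36 in this list, Zfp36l1 had a log2 change of -2.12 ± 0.083, whereas Zfp36l2 rose by 0.71 ± 0.080.

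The arrays as a whole had 43.9% to 47.5% of probes well above background in treated channels and 53.4% to 54.3% in untreated ones. Calls over all genes were 65.3% lower, and 51.0% lower when arrays were centred on the tested genes. Beside the marker counts that follow, 24.5% of all tested genes were called higher and 46.1% lower. All 7 macrophage markers with a probe were above background in every reading, though with loess 6 of them fell and Cd14 rose. Of 7 neutrophil markers, 3 rose and 3 fell, and their summed log2 signal was 14.7 to 15.35 in treated and 14.62 to 14.82 in untreated cells. Of 7 fibroblast markers 4 were measured and 3 rose, namely Dcn (0.79 ± 0.081), Col1a2 (0.35 ± 0.079) and Pdgfrb (0.25 ± 0.094), while Pdgfra and Lum were not above background in any reading. Their summed log2 signal was 9.06 to 9.23 in treated and 8.67 to 8.78 in untreated cells. Of 4 adipocyte markers only Fabp4, which macrophages also express, was measured, and it rose by 0.43 ± 0.097 from 13.16 to 13.59, while Adipoq and Plin1 were not above background in any reading. Of 5 platelet markers, 1 was measured and it did not pass. The part of other cells in the chemokine ratios was not tested, and fewer cells of a type and less RNA per cell cannot be told apart in such samples.

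**Figure D5:**
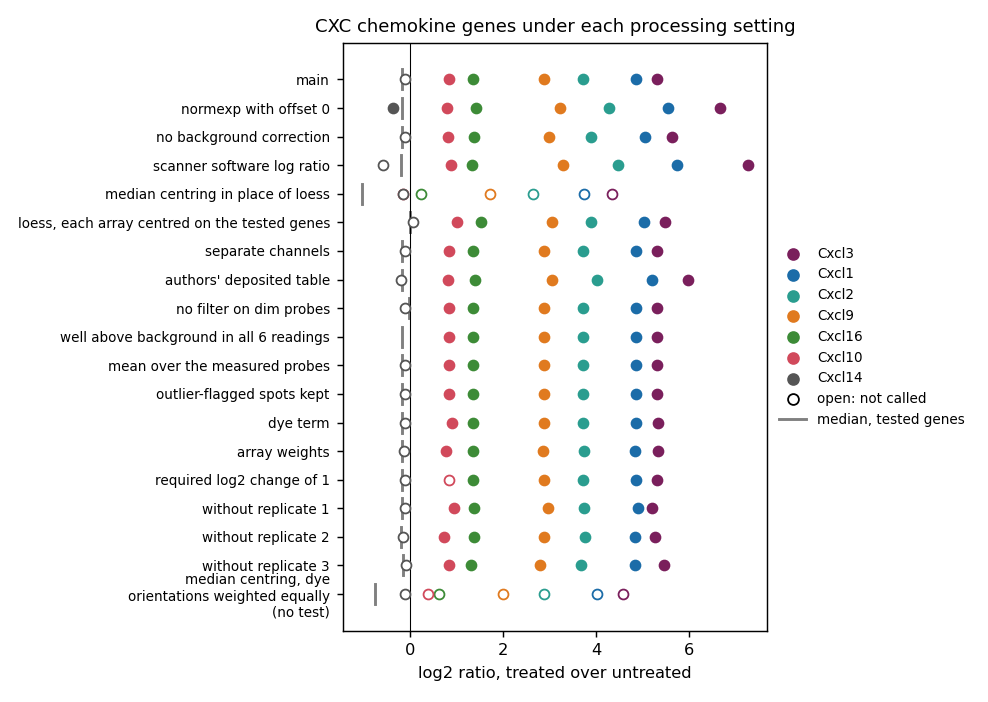
Log2 ratio (x axis) of the 7 tested CXC chemokine genes under the setting used here and 18 alternatives (y axis). Filled points passed an adjusted p under 0.05 in limma, open points did not or had no test, and grey bars are the median of all tested genes. Cxcl3, Cxcl1, Cxcl2 and Cxcl9 stay well to the right of the grey bar in every row.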

How the data were processed

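Total RNA of 3 treated and 3 untreated cultures was hybridised in pairs to 3 Agilent 2-colour arrays. Per the file headers, images were quantified with Agilent Feature Extraction 10.7.3.1, and the deposited intensity columns used here are median spot and local background signals without normalization. The deposited log10 ratio is, per the file headers, Cy5 over Cy3 after the scanner software's background subtraction and dye normalization. The authors' deposited log2 table has no stated method. Its columns correlated at r = 0.994, 0.990 and 0.992 with uncorrected loess ratios of treated over untreated, with medians of -0.00041, -0.0049 and -0.00064, so it was already turned that way; its background handling stays unknown.

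Signals were corrected with normexp (offset 50) and loess within arrays in limma 3.58.1 (R 4.3.3), with control spots at weight 0. Outlier spots (299 to 323 an array) were left out, none of them a member's. Probes well above background in at least 3 of 6 channel readings were kept, with the brightest probe per gene, and fitted with lmFit and eBayes over 13182 genes. SEs are moderated, from 2 residual degrees of freedom and a prior of 6.21. Channel signals followed Aquantile normalization. Accessions were named through RefSeq (GRCm38.p6), which matched 27235 of 55681 probes to 1 symbol. The fit alone was run on simulated ratios with known changes, which does not test background correction, normalization or dye effects.

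The members and gene lists were chosen with earlier results of these data known. Named from each list were up to 3 called genes of largest absolute ratio and the receptors of the members. Adam17 and Zfp36l2 were named in addition.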

Additional observations from a re-analysis of the deposited data

How the results depend on the processing

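Cxcl1, Cxcl2, Cxcl3, Cxcl9 and Cxcl16 passed in 16 of 17 tested alternatives and Cxcl10 in 15, being lost also with a required log2 change of 1. Median centring in place of loess gave 0 calls in limma for the members, for all genes in either direction and for the pathway lists in either direction, with 5315 genes at an unadjusted p under 0.05. Its adjusted p was 0.0742 for Cxcl1, Cxcl2 and Cxcl3 and 0.0823 for Cxcl9. It reversed Cxcl10 (-0.15), Cxcr3 (-0.51), Cxcr4 (-0.996), Cxcr6 (-0.40) and Pf4 (-0.60). Per array the median of tested genes was then -1.48, -0.06 and -1.67, with replicate 2, the swapped array, apart from the others. Weighting both dye orientations equally, an alternative chosen after seeing the data, left Cxcr3 at -0.24, Cxcr4 at -0.70, Cxcr6 at -0.32 and Pf4 at -0.090. Cxcl14 reversed to 0.065 when arrays were centred on the tested genes, and a normexp offset of 0 gave 1 CXC gene called lower, Cxcl14. The required log2 change of 1 left 575 genes higher and 872 lower over all, and 9 and 3 of the pathway lists, against 25 and 8. The cause of these changes was not tested. Without 1 replicate each, the same 6 members passed, and Cxcl10 ranged from 0.73 to 0.96 and Cxcl3 from 5.19 to 5.47. Relative to the median of all tested genes, Cxcl3 ranged from 5.32 to 7.45, Cxcl9 from 2.75 to 3.48 and Cxcl10 from 0.86 to 1.13 over the alternatives. The order of the members was the same in 17 of 18 alternatives. The ratio of each array pairs its treated with its untreated sample, so the analysis is itself paired and no further replicate block was fitted. Signal over background limits Cxcl5, Cxcl12 and Cxcl14, and the untreated side of Cxcl3.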

Other observations

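The 10 bases GGGAATTTCC that Cxcl1, Cxcl2 and Cxcl3 share before their starts were also found before 25 other genes, of which 14 were measured. Of these 14, 3 were called higher and 8 lower in limma, beside 24.5% and 46.1% of all tested genes, and their median log2 ratio was -0.57. Those that rose were Nfkbia, the NF-kB inhibitor gene (3.51 ± 0.094), Gbp5, a guanylate-binding protein gene (1.90 ± 0.16), and Slc6a13, a GABA transporter gene (0.93 ± 0.12). The largest falls were Il16, a cytokine gene (-2.11 ± 0.090), Csad, an enzyme gene of taurine synthesis (-1.40 ± 0.080), and the zinc finger gene Zfp84 (-1.21 ± 0.079). The chemokine receptor gene Ccr3 (-1.01 ± 0.12) and Map3k7, the kinase TAK1 of the NF-kB pathway (-0.91 ± 0.084), were lower as well. Genes with this motif thus went both ways, and the genes named here were chosen after their values were seen.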
